A study of Mus musculus with 6 samples.

Results

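Retained-intron transcripts are annotated RNAs of a gene in which sequence that another transcript of the gene removes as an intron is kept. The table lists 21464 transcripts with this biotype among 109383 transcripts. The 8656 described here (40.3% of the retained-intron entries) are those that reached 1 TPM in 3 or more of 6 libraries. TPM is an abundance in which reads are corrected for the length of a transcript and for the size of its library. The libraries hold poly(A) RNA of the optic nerve of 6-week-old mice, 3 from a control diet (PicoLab 5053) and 3 from an obesogenic diet (AIN-76A with 58% fat energy and sucrose). All 6 libraries share the genotype GFAP-Cre; Nf1-Flox/R681X. In these mice Cre can delete the floxed allele of Nf1, the other allele holds the R681X mutation, and the GFAP promoter that drives Cre is active in astrocytes and in the progenitors of glia, so the other cells of the nerve can keep the floxed allele. The series asks how exposure to the obesogenic diet, maternal according to its title, affects gene expression in the nerve of mice that form optic glioma. The labels do not say that the libraries came from separate animals, so p-values reflect only how far these samples spread, possibly for technical reasons.

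The members were chosen by their TPM values in all 6 libraries, without regard to diet. Because a transcript absent from 1 diet could still enter through the 3 libraries of the other, counts of such transcripts are given below as descriptions. The members belong to 4692 parent genes. Of these genes, 2554 have 1 member, 1153 have 2 and 985 have 3 or more. Just inside the limit lie Ralgds-208 and Prepl-203, whose third-highest values were 1.00 and 1.001 TPM. Just outside lie Brd2-216 and Adarb1-213, both with a third-highest value that rounds to 1.00 TPM but is below 1.

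Introns are removed from nearly all mouse pre-mRNAs in the nucleus, and a polyadenylated RNA that still holds an intron can be kept in the nucleus, spliced later, exported, or degraded. A retained intron usually brings a stop codon into the reading frame, which can send the RNA to nonsense-mediated decay once it is translated. SR proteins, which help the spliceosome to recognise exons, the CLK kinases that phosphorylate them, and several hnRNPs are known for retained introns and decay-prone exons in their own transcripts, through which their protein levels are adjusted. The annotation label itself records only that such an RNA was described, not where in the cell it is or whether it is an intermediate.

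To show what is retained, 4 short introns are given whole, each with 9 exon bases on either side, from GRCm38 with the GENCODE M21 models of the transcripts. Capitals mark the first and last 2 bases of the intron and, where there is one, the first stop codon in the reading frame that enters from the upstream coding exon. They were taken from a kinase of SR proteins, an abundant iron-storage gene, a mitochondrial ribosomal gene and the kinase gene Ilk, and they show 3 different outcomes for the reading frame.
Clk1-204, chr1:58417180-58417266, minus strand: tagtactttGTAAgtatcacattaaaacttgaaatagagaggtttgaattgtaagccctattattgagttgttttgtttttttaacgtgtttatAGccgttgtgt
Fth1-207, chr19:9984686-9984780, plus strand: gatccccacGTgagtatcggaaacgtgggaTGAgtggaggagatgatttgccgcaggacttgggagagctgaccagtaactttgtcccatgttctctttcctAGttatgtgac
Mrps26-201, chr2:130564228-130564307, plus strand: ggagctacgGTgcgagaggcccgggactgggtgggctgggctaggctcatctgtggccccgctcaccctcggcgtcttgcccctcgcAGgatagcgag
Ilk-209, chr7:105741484-105741579, plus strand: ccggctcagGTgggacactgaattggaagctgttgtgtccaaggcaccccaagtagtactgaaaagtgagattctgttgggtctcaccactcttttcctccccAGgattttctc
In the Clk1 intron of 87 bases the stop codon begins at intron base 2, inside the 5′ splice site. In the Fth1 intron of 95 bases it begins at base 22. The Mrps26 intron of 80 bases holds no stop in the frame but shifts it. The Ilk intron of 96 bases leaves the frame open.

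The splicing factor genes Srsf2, Rsrp1 and Srsf5 gave members that matter for the results below and that hold longer introns, so only the 2 ends are shown, each with 9 exon and 21 intron bases. Capitals again mark the first and last 2 bases of the intron. Srsf2-203 holds 2 introns that lie outside the coding part of the gene's coding models.
Srsf2-203, first intron, 5′ end: aagaaaatgGTaatgtctgcgggaatctga
Srsf2-203, first intron, 3′ end: ctgcattttccccctttaaAGctgcggtct
Srsf2-203, the second intron, 5′ end: ttggagcagGTttgtctttaaatgttaaag
Srsf2-203, the second intron, 3′ end: cctctttcttttcaaacctAGatgaatcgg
Rsrp1-204, 5′ end: aaggtggagGTaagtgccttcaggaagctg
Rsrp1-204, 3′ end: taaaattctcttcctctttAGcattcagaa
Srsf5-212, 5′ end: agctggcagGTttgttgaaatacagttttg
Srsf5-212, 3′ end: acataattgtcttgtgttaAGgatctcaaa
On GRCm38 the Srsf2 introns are chr11:116851752-116852020 (269 bases) and chr11:116850962-116851647 (686 bases) on the minus strand. The Rsrp1 intron is chr4:134925433-134926734 (1302 bases) and the Srsf5 intron chr12:80947866-80949094 (1229 bases), both on the plus strand and both with a stop in the frame. Every intron printed here begins with GT and ends with AG.

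The same models were used to describe the members as a whole, and 8629 of the 8656 had their transcript ID in GENCODE M21. Of these, 3087 hold at least 1 complete intron of a coding model of their gene inside one of their exons, 2230 of them exactly 1. The other 5542 hold no complete one, so their levels and shares below are those of the labelled form only. The 3950 distinct introns had a median length of 218.5 bases (quartiles 104 and 534) and a median GC content of 52.5%. They began with GT and ended with AG in 3880 cases, GC and AG in 50 and AT and AC in 3. Across the coding-model introns of the parent genes, the 3951 retained in a member had a median of 218 bases and the 66991 others a median of 1257 bases. The retained-intron entries below the TPM limit held complete introns in 26.2% of those matched, beside 35.8% of the members, and these introns had a median of 313 bases and 49.8% GC. Of 3710 introns between coding exons, 3248 (87.5%) contain a stop in the frame, 338 only shift the frame and 124 leave it open. An intron was counted only if it lay wholly inside an exon of the member, and of overlapping introns the shortest was kept. The members had a median length of 850 bases, so many longer introns could not be counted. The length difference is therefore partly set by this rule. These are descriptions of annotation without a test. Introns of 1 gene are not independent of each other.

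**Figure D1:**
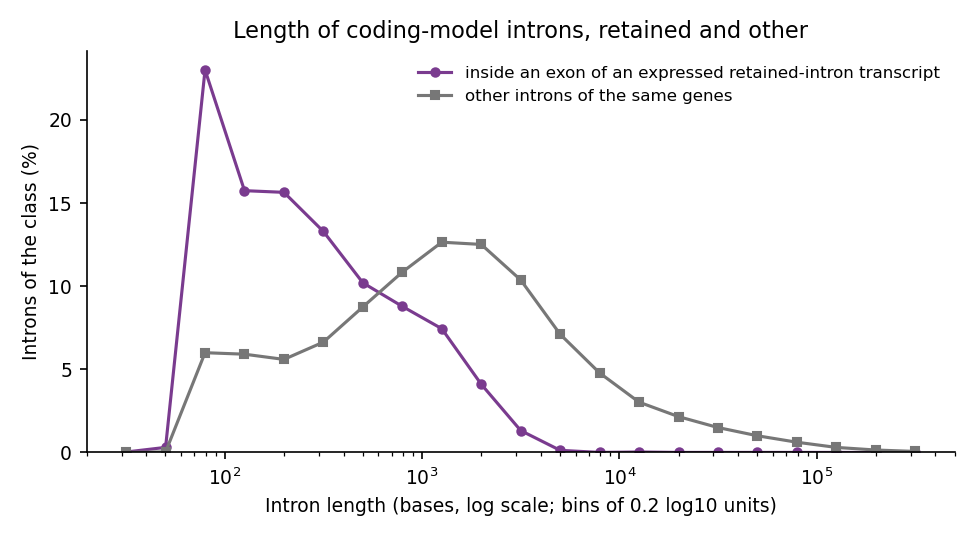
Distribution of intron length (log10 of bases, horizontal axis) for the introns held whole in a member and for the other coding-model introns of the same genes, as percent of each set (vertical axis). The retained set is shifted to short introns, with a median of 218 bases against 1257 bases. An intron longer than the exon of a member could not be counted as held, so the rule itself favours short introns.

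The listed TPM of a library summed to between 788456 and 832193. The marker genes of mature oligodendrocytes, the main glia of this tissue, were present in every library, summing to 61977 to 69953 TPM in control and 27029 to 55273 TPM in obesogenic libraries, and those of astrocytes to 6013 to 7876 and 2883 to 6939 TPM. Obesogenic library 2 stood apart by immunoglobulin genes, which made up 20.6% of its listed TPM and at most 0.0439% elsewhere. Neuronal markers summed to 50.6 to 88.3 TPM in control libraries and to 980, 198 and 1933 TPM in obesogenic libraries 1, 2 and 3. Haemoglobin genes made up between 0.422% (obesogenic library 3) and 4.34% (control library 3). None of the neuron, microglia, or B and plasma cell markers has a member. The lists of oligodendrocyte, astrocyte, meningeal fibroblast and endothelial markers hold 5, 8, 5 and 3 members. In bulk tissue, fewer cells of a type and less RNA per cell cannot be told apart.

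A share of the parent gene depends on which other transcripts of the gene are listed. For 4589 members, GENCODE M21 has a protein-coding transcript of the gene that was not analysed here, often the main one, such as Srsf2-201, Srsf5-201 and Clk1-201. Shares below are therefore shares of the listed TPM of the gene, and for these genes they are upper values. For 3913 members in 2298 genes every M21 transcript was listed. Over all members the median of the mean share was 8.50% (quartiles 3.95% and 18.7%), and over the fully listed genes 6.48%. A mean share above 50% was found for 433 members, but 340 of them are from genes with a coding transcript not analysed here, and 87 belong to fully listed genes. A further 2742 members had a mean share below 5%.

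As a class, retained-intron transcripts took a similar part of every library. In control libraries 1, 2 and 3 the members made up 6.89%, 6.24% and 7.06% of the listed TPM. In obesogenic libraries 1, 2 and 3 they made up 7.69%, 6.79% and 6.44%. The highest and the second lowest value were both obesogenic, and the diets overlapped. The mean was 6.73% ± 0.434 in control and 6.97% ± 0.643 in obesogenic libraries (SD, n = 3; two-sided exact permutation p = 0.7, where 0.1 is the smallest p that 3 against 3 can give). Without the TPM limit, all 21464 entries made up 7.46%, 6.69% and 7.52% in control and 8.39%, 7.46% and 7.05% in obesogenic libraries (exact permutation p = 0.6). With haemoglobin and immunoglobulin genes removed from both sums, the members' part was 6.70%, 6.05% and 6.24% against 7.41%, 7.80% and 6.35% (exact permutation p = 0.2). Without obesogenic library 1 the difference between the diet means turned from 0.247 to -0.110 percentage points.

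Relative to their own genes, the members summed to 13.4%, 11.97% and 13.6% of the listed TPM of all parent genes in control libraries and to 15.4%, 16.9% and 13.6% in obesogenic libraries. Obesogenic libraries 1 and 2 lay above every control library, and obesogenic library 3 lay within the control range. The means were 12.99% ± 0.882 and 15.3% ± 1.69 (SD, n = 3; exact permutation p = 0.2). The difference of 2.31 percentage points was 1.504 without obesogenic library 2, and 1.01 without the 10 parent genes of highest summed TPM (exact permutation p = 0.4). Over fully listed genes the share was 12.1%, 11.2% and 13.5% against 13.1%, 15.4% and 11.3% (exact permutation p = 0.6). Removing haemoglobin genes gave 13.1%, 11.6% and 12.2% against 14.9%, 15.6% and 13.4%, where the diets did not overlap and the exact permutation p was 0.1, the smallest possible. The share of a typical member moved less, with a median over members of 8.11%, 7.03% and 7.34% in control and 8.36%, 8.58% and 6.85% in obesogenic libraries (exact permutation p = 0.6).

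**Figure D2:**
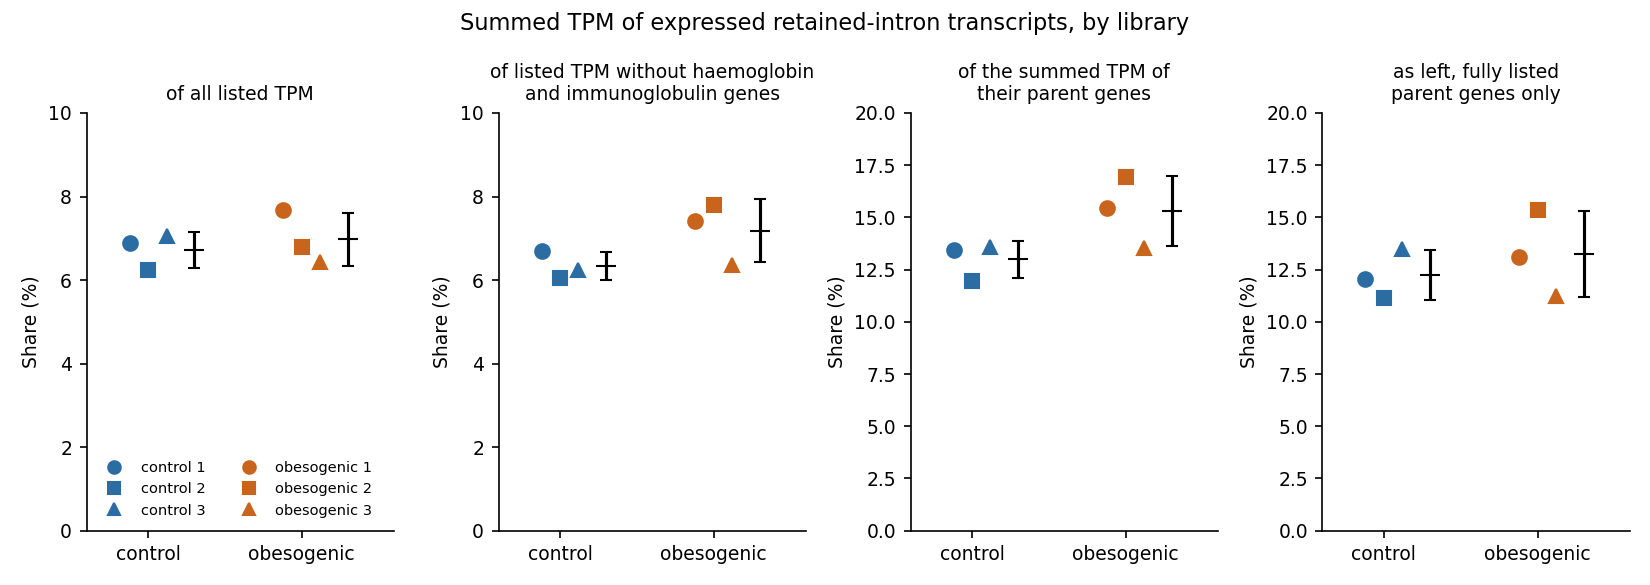
Retained-intron members in each of the 6 libraries, as percent (vertical axes) of the listed TPM, of the listed TPM without haemoglobin and immunoglobulin genes, of the listed TPM of their parent genes, and of parent genes that are fully listed. Points are libraries, bars are the mean ± SD of a diet, and the diets overlap in every panel, with 6.24% to 7.69% of the listed TPM and 11.97% to 16.9% of the parent genes.

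In control libraries 7236, 6687 and 6832 members reached 1 TPM, and in obesogenic libraries 7617, 7151 and 7010. In all 6 libraries together, 3942 members did so. Most are scarce. The median of the mean TPM was 2.59 (quartiles 1.56 and 5.04), 915 members had a mean of at least 10 TPM and 35 of at least 100 TPM. The 10 most abundant held 14.3% of the members' TPM and the top 100 held 29.9%.

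The most abundant members come from genes that are highly expressed in blood and glia. Among them, Hba-a1-202, Hbb-bs-202, Trf-209, Ctsb-202 and Hapln2-204 hold no complete coding-model intron. Ptgds-205 and Fth1-207 hold 1 each. Hba-a1-202, from an alpha chain gene of haemoglobin, was at 1519, 1514 and 6279 TPM with the control diet and 2446, 5387 and 651 TPM with the obesogenic diet. It was highest in control library 3 and lowest in obesogenic library 3, as the haemoglobin genes were together, and its share of Hba-a1 stayed between 70.6% and 74.0%. Hbb-bs-202, from a beta chain gene, was at 495, 443 and 2505 TPM with the control diet and 673, 1731 and 250 TPM with the obesogenic diet, with a share between 14.5% and 18.3%. Haemoglobin genes have near-identical copies, so the split of reads between copies is uncertain. These fully listed genes held a nearly fixed isoform ratio while their level varied between libraries of the same diet.

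Genes of glia, meninges and iron handling supplied other members. Ptgds-205, from the gene of a prostaglandin D synthase made by meninges and oligodendrocytes, was at 697, 857 and 756 TPM with the control diet and 461, 334 and 341 TPM with the obesogenic diet. All its obesogenic values lay below the control values, and the log2(TPM + 1) difference of -1.03 (SE 0.21) did not pass over all transcripts (limma adjusted p = 0.236). The listed Ptgds TPM was also lower, at 40721.5, 51149 and 43973 against 16087.5, 11467 and 16482 TPM, so the member's share was 1.67% to 1.72% in control and 2.07% to 2.92% in obesogenic libraries. The summed meningeal markers were lower in the obesogenic libraries too (1575 to 2238 TPM against 594 to 748 TPM), and their part in the Ptgds values was not tested.

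Fth1-207, from the ferritin heavy chain gene, was at 894, 665 and 677 TPM with the control diet and 495, 408 and 302 TPM with the obesogenic diet. The diets did not overlap in level (log2 difference -0.905, SE 0.25, limma adjusted p = 0.373). Its share of the fully listed gene was 2.99% to 3.63% in control and 2.63% to 2.86% in obesogenic libraries, again without passing (limma adjusted p = 0.946 for the ratio to the rest of the gene). Trf-209, from the transferrin gene, which oligodendrocytes express strongly, was at 463, 720 and 409 TPM against 403, 308 and 247 TPM. The oligodendrocyte marker sum was lower in obesogenic libraries as well, and its part in these values was not tested.

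Ctsb-202, from the gene of the lysosomal protease cathepsin B, was at 394, 433 and 406 TPM with the control diet and 452, 837 and 444 TPM with the obesogenic diet, and it held 58.5% to 61.4% of its fully listed gene in every library. Hapln2-204, from the gene of a hyaluronan link protein at nodes of Ranvier, was at 361, 495 and 464 TPM against 451, 200 and 198 TPM, with a share of 42.5% to 47.1%. In both genes the member's level followed the level of the gene, and neither ratio passed.

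**Figure D3:**
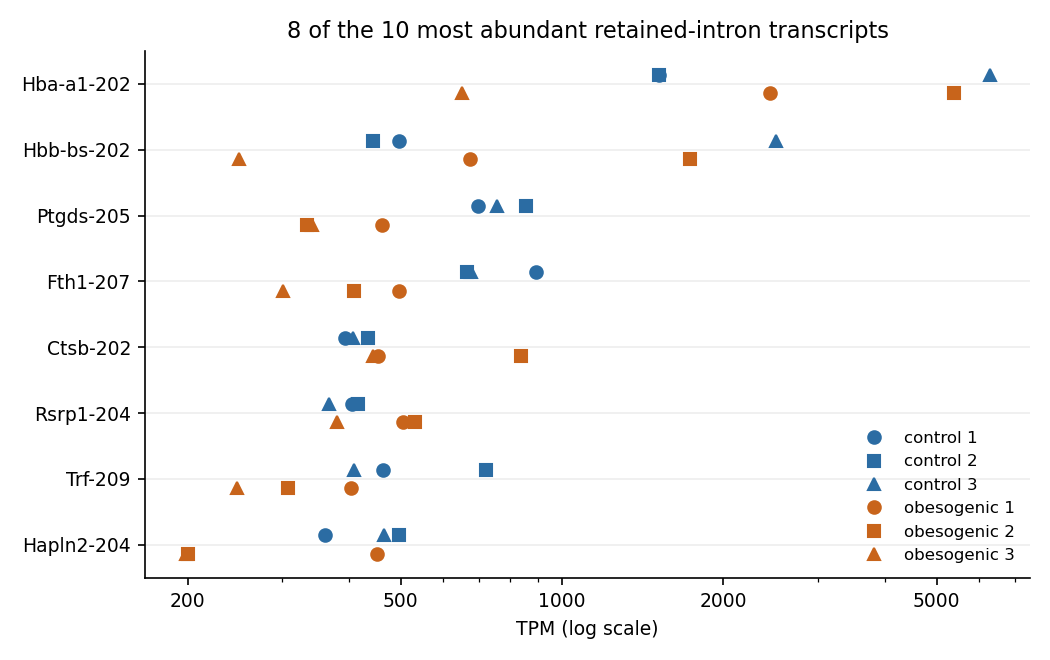
TPM (log axis) of 8 of the 10 most abundant members in each of the 6 libraries, with control and obesogenic libraries marked separately. The haemoglobin members spread widest, from 651 to 6279 TPM for Hba-a1-202, while Rsrp1-204 keeps within 367 to 532 TPM.

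The members with the highest shares of their gene are mostly those whose main coding transcript was not analysed. Among genes with a mean of at least 10 TPM, Anxa5-202 held 98.7% to 100% of the listed Anxa5 TPM and Trim35-203 held 90.3% to 99.5%, and in both the coding transcript named 201 was not analysed here. Mrpl57-202 and Mrps26-201, from genes of mitochondrial ribosomal proteins, and Chic2-202 are from fully listed genes. Mrpl57-202 was at 67.1, 61.3 and 66.8 TPM with the control diet and 66.8, 69.0 and 90.2 TPM with the obesogenic diet, and held 93.3% to 95.6% of its gene. Mrps26-201 was at 52.0, 49.8 and 46.3 TPM against 62.4, 50.6 and 74.6 TPM, with 92.8% to 94.3%, so the RNA with the printed 80-base intron is the main listed form of that gene. Chic2-202 was at 36.4, 30.1 and 27.3 TPM against 21.6, 29.5 and 23.9 TPM, with 86.9% to 91.9%. Wdr83os-203, Tmed4-202, Snrpb2-203, Cnih1-203 and Txlna-206 complete the list, with mean shares from 89.7% to 94.2% of genes whose main coding transcript was not analysed. Among these, Cnih1-203 held 100%, 97.8% and 89.7% in control and 90.8%, 90.9% and 76.6% in obesogenic libraries, and Txlna-206 held 93.0%, 95.9% and 95.0% against 68.9%, 91.4% and 93.8%. Cnih1-203 overlapped between diets. Txlna-206 overlapped through obesogenic library 3 and was lowest in obesogenic library 1. The ratio of none of these 10 to the rest of its gene passed (limma adjusted p from 0.829 to 0.989). Of these 10, Anxa5-202, Trim35-203, Mrpl57-202, Snrpb2-203, Cnih1-203 and Chic2-202 hold no complete coding-model intron, and the others hold at least 1.

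Several genes express many retained-intron forms at once. Aup1, a gene of lipid droplets and protein degradation at the endoplasmic reticulum, has 11 members. Together they held 58.8%, 49.9% and 56.3% of its listed TPM in control and 66.1%, 61.1% and 58.4% in obesogenic libraries. Man2c1, a cytosolic mannosidase gene, has 10 members with 53.6% to 63.0% in all libraries. Hnrnpk, Pcyt2, Tia1 and Tmem191c have 9 each. In Pcyt2, an enzyme gene of phosphatidylethanolamine synthesis, they held 93.4%, 82.0% and 93.5% in control and 91.9%, 85.7% and 77.1% in obesogenic libraries. In Tia1, a splicing regulator and stress granule gene, the 9 members summed to 45.2, 27.6 and 42.1 TPM with the control diet and 98.8, 61.9 and 54.8 TPM with the obesogenic diet. All obesogenic sums of Tia1 lay above the control sums, but its share was 62.3% to 66.8% against 59.4% to 75.02%. The member counts chose these genes, and the values are a description.

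Genes of the splicing machinery hold many members. On the list of SR proteins and SR-like factors, 21 of 28 genes had 46 members, which summed to 1311, 1151 and 1147 TPM with the control diet and 1543, 1353 and 1149 TPM with the obesogenic diet. They held 47.0%, 47.8% and 44.7% of their genes' listed TPM in control and 48.2%, 50.1% and 43.7% in obesogenic libraries. The median log2 difference of these 46 was 0.24, beside 0.11 over all members and 0.07 over all 35408 transcripts tested. In 5 of them the obesogenic libraries were all higher and in 2 all lower, beside 7.43% and 6.11% of all transcripts tested. None passed the test of all transcripts, in which 2 did (0.00565%). Rsrp1-204, from the gene of an arginine and serine rich protein, was the most abundant, at 405, 416 and 367 TPM with the control diet and 504, 532 and 380 TPM with the obesogenic diet. It held 53.6%, 63.7% and 52.4% of its fully listed gene against 62.1%, 63.2% and 62.5%, so the diets overlapped through control library 2. Srsf5-212 was at 295, 256 and 228 TPM against 332, 271 and 244 TPM, and its listed share was 54.6% to 61.7% in all libraries. Srsf1-203 was at 54.6, 43.1 and 40.1 TPM against 57.2, 45.5 and 60.7 TPM, and Srsf7-207 at 42.9, 30.1 and 37.7 TPM against 55.6, 50.2 and 35.0 TPM, both with overlapping diets.

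Of the 14 kinases of SR proteins, 9 had 26 members. These held 35.6%, 34.0% and 40.7% of their genes in control and 38.8%, 37.4% and 31.3% in obesogenic libraries, 1 was higher and 1 lower without overlap (7.43% and 6.11% of all transcripts were), and 0 passed. Clk1-204, with the printed 87-base intron, was at 41.2, 30.9 and 36.9 TPM with the control diet and 53.0, 39.7 and 38.2 TPM with the obesogenic diet. Its listed share was 33.2% to 41.5% against 31.1% to 34.7%. Clk4-207 was at 26.7, 24.7 and 22.8 TPM against 34.8, 26.1 and 28.0 TPM, and Clk4-213 at 19.4, 15.4 and 17.3 TPM against 26.9, 20.6 and 17.5 TPM. Each of these 3 overlapped between diets.

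The hnRNPs and other RNA-binding regulators had 96 members in 28 of 56 genes, with a median log2 difference of 0.19. In 13 of them the obesogenic libraries were all higher and in 0 all lower, beside 7.43% and 6.11% of all transcripts, with 0 past the threshold. Hnrnpa2b1-211 was the most abundant, at 152, 100.3 and 135 TPM against 157, 134 and 112 TPM. Hnrnpa2b1-208 was at 131, 107 and 112 TPM against 158, 124 and 105 TPM. Hnrnpk-215 was at 98.2, 62.2 and 87.1 TPM against 61.4, 70.0 and 83.6 TPM, and Rbm39-205, from the gene of an SR-like coactivator, at 79.7, 54.4 and 57.2 TPM against 87.0, 77.9 and 56.4 TPM. All 4 overlapped between diets.

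Among 66 core spliceosome genes, 41 had 95 members, with a median of 0.15, 6 higher and 0 lower without overlap beside 7.43% and 6.11% of all transcripts, and 0 past the threshold. Sf3b1-203, from the gene of the branch point factor, was at 41.9, 33.3 and 40.0 TPM with the control diet and 61.8, 58.4 and 47.6 TPM with the obesogenic diet. All obesogenic values were above the control values (log2 difference 0.53, SE 0.20, limma adjusted p = 0.559), and the gene's listed sum was higher in the same way. Sf3b1-203 made up most of this sum, so the sum is no separate measurement, and the coding Sf3b1-201 was not analysed here. The share, an upper value, was 70.1% to 84.5% against 67.9% to 77.6%. Snrnp70-216 was at 37.2, 36.0 and 40.2 TPM against 55.4, 25.5 and 43.0 TPM. Sart1-205 and Sf3b6-202, both from fully listed genes, had mean shares of 46.2% and 27.0% and overlapped between diets.

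**Figure D4:**
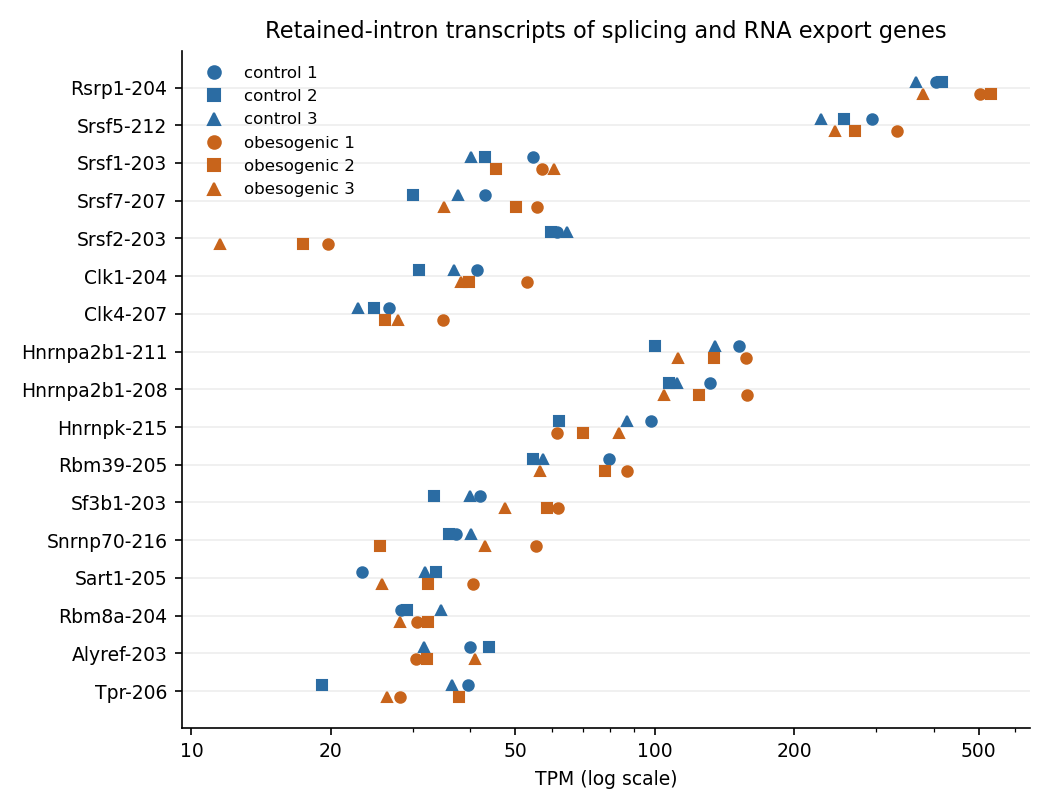
TPM (log axis) of the most abundant members from genes of splicing and RNA export, and of Srsf2-203, in each of the 6 libraries, marked by diet. Sf3b1-203 is higher in each obesogenic library, at 47.6 to 61.8 TPM against 33.3 to 41.9 TPM, and Srsf2-203 is lower, at 11.5 to 19.7 TPM against 59.7 to 64.6 TPM.

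Lists of RNA decay and export genes were counted in the same way. The list of nonsense-mediated decay and exon junction genes had 15 members in 7 of 22 genes, 2 of them higher and 0 lower without overlap, beside 7.43% and 6.11% of all transcripts. Rnps1-207, from the gene of a splicing and exon junction protein, was at 7.95, 6.29 and 6.64 TPM with the control diet and 10.9, 11.02 and 12.03 TPM with the obesogenic diet. Its diets did not overlap, and it did not pass (log2 difference 0.64, SE 0.25, limma adjusted p = 0.561). Rbm8a-204, from a core gene of the exon junction complex, was at 28.4, 29.2 and 34.6 TPM against 30.7, 32.4 and 28.2 TPM. Nuclear RNA decay and export genes had 50 members in 25 of 35 genes, with 6 higher and 2 lower without overlap, beside the same 7.43% and 6.11%. Alyref-203, from an export adaptor gene that is fully listed, was at 39.9, 43.8 and 31.8 TPM against 30.5, 32.2 and 40.9 TPM. Tpr-206, from a nuclear pore basket gene, was at 39.5, 19.1 and 36.5 TPM against 28.2, 37.8 and 26.4 TPM. The list of genes known for regulated retained or detained introns, which overlaps the lists above, had 106 members in 37 of 49 genes, 8 higher and 3 lower without overlap, again beside 7.43% and 6.11%, and 0 passed.

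At gene level, summed over listed transcripts, 0 genes of these 7 lists passed, beside 1 of 14364 genes tested (0.00696%). Without overlap, 8.88% of all genes tested were higher and 7.45% lower in the obesogenic libraries. Of 27 tested SR genes 6 were higher and 1 lower, of 14 kinase genes 1 and 0, of 55 hnRNP and regulator genes 4 and 1, of 65 spliceosome genes 9 and 3, of 20 decay and exon junction genes 2 and 1, of 32 nuclear decay and export genes 3 and 0, and of 47 known retained-intron genes 5 and 3. Their median log2 differences lay between 0.02 and 0.16, beside 0.08 over all genes. Exosc10, the nuclear exosome nuclease gene, was at 13.96, 9.996 and 9.76 TPM against 19.4, 17.6 and 21.7 TPM (log2 difference 0.76, SE 0.24, limma adjusted p = 0.362). The neuronal splicing regulator gene Rbfox3 was at 0.888, 1.23 and 1.61 TPM against 11.7, 2.17 and 54.7 TPM, with the order of the obesogenic libraries that the neuronal markers have. Rbfox3 is itself on the neuronal marker list. Without obesogenic library 2, 8 genes of these lists passed, among them Srsf2, Srsf12, Matr3 and Rbfox3, in a fit that called 914 of all genes (6.36%). Gene sums leave out coding transcripts not analysed here, such as Srsf2-201. Srsf2-203 made up 73.5% to 81.1% of the listed Srsf2 TPM in control and 32.0% to 40.4% in obesogenic libraries. The Srsf2 call is therefore no result separate from that member.

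Member by member, limma found no diet difference past the threshold of 0.05. In the test of log2(TPM + 1), 0 of 8656 members passed, beside 2 of 35408 transcripts (0.00565%), and the smallest adjusted p of a member was 0.0849. An unadjusted p below 0.05 was found for 500 members (5.78%), beside 8.46% of all transcripts. The obesogenic libraries were all higher in 683 members (7.89%) and all lower in 322 (3.72%), beside 7.43% and 6.11% of all transcripts. With eBayes run without the mean-variance trend, 1 member passed, Mtx1-211 (limma adjusted p = 0.0379), beside 6 of all transcripts (0.0169%). It was at 0 in all control libraries and became a member only through the obesogenic libraries, so this call supports nothing about the members.

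The second test asked about the ratio of a member to the other listed transcripts of its gene, as log2 of both with 1 TPM added, and 8463 members could be tested. Here 0 passed, beside 3 of 32005 transcripts (0.00937%), with a smallest adjusted p of 0.109. An unadjusted p below 0.05 was found for 387, or 4.57%, beside 5.98% of all transcripts. The ratio was higher without overlap in 524 members (6.19%) and lower in 354 (4.18%), beside 5.66% and 5.32% of all transcripts. The median log2 difference of the ratio was 0.03 over the members, and leaving out control library 2 or obesogenic library 2 turned it to -0.01 and -0.03. With a pseudocount of 0.1 in place of 1, 4 members passed (Mtx1-211, Srfbp1-205, Pcca-205 and Thoc2-214), beside 27 of all transcripts tested (0.0844%). All 4 were listed at 0 in 1 diet and became members only through the other.

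The member of an SR protein gene with the smallest p was Srsf2-203 (ENSMUST00000138484), an RNA of 1814 bases. It was at 61.4, 59.7 and 64.6 TPM with the control diet and 19.7, 17.4 and 11.5 TPM with the obesogenic diet. The diets were far apart and the libraries within a diet close together, at 61.9 ± 2.47 TPM and 16.2 ± 4.20 TPM (SD, n = 3). The log2 difference was -1.90 (SE 0.24), with an unadjusted p of 0.000104 that did not pass over all transcripts (limma adjusted p = 0.149). Over the alternatives the log2 difference stayed between -2.05 and -1.69 and the adjusted p between 0.0732 and 0.445.

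Other RNAs of Srsf2, which encodes an SR protein that acts in exon recognition, did not follow Srsf2-203. Srsf2-204, labelled as a target of nonsense-mediated decay, was at 15.96, 11.1 and 7.64 TPM with the control diet and 25.6, 29.0 and 15.9 TPM with the obesogenic diet. It overlapped only through control library 1 and obesogenic library 3. Its log2 difference of 0.97 was opposite in sign to that of Srsf2-203 and did not pass (limma adjusted p = 0.521). Srsf2-202, with the same label, was at 6.13, 6.52 and 7.43 TPM against 3.45, 5.47 and 8.60 TPM. Srsf2-205 and Srsf2-206 were listed at 0 in all libraries, and Srsf2-201, the main coding transcript, was not analysed here. The share of Srsf2-203 in the listed Srsf2 TPM was 73.5%, 77.2% and 81.1% in control and 40.4%, 33.5% and 32.0% in obesogenic libraries. The ratio differed by -2.56 on the log2 scale (SE 0.34, limma adjusted p = 0.181). The listed Srsf2 sum was 83.5, 77.3 and 79.6 TPM against 48.7, 51.9 and 36.0 TPM (log2 difference -0.82, SE 0.19, limma adjusted p = 0.253). This sum was carried by Srsf2-203, so it is no separate measurement.

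**Figure D5:**
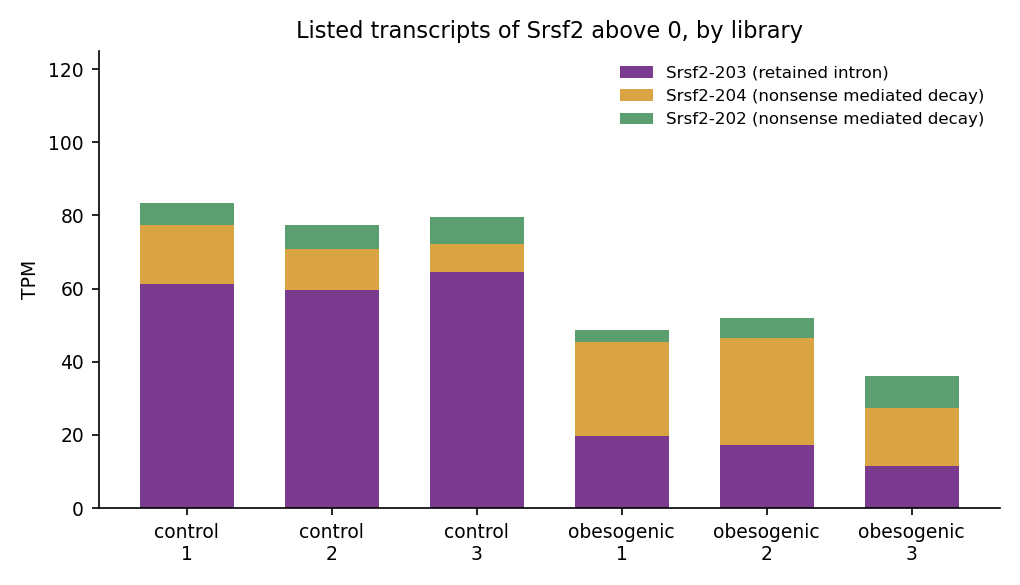
TPM (vertical axis) of the listed Srsf2 transcripts above 0, stacked in 1 bar for each of the 6 libraries. Srsf2-203 separates the diets at 59.7 to 64.6 TPM against 11.5 to 19.7 TPM, while Srsf2-204 and Srsf2-202 overlap. Srsf2-204 overlaps only narrowly, with a log2 difference of 0.97.

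Most of the other members with the smallest p were listed at 0 in every library of 1 diet. For such members no fold is given, since a 0 can be an estimate that failed, and the same holds for the count: 27 members were at 0 in all control and at 1 TPM or more in all obesogenic libraries, and 9 the other way round (0.312% and 0.104% of the members), beside 0.401% and 0.226% of all transcripts tested. Without requiring an exact 0, 148 members reached 1 TPM in all obesogenic and no control library and 49 in all control and no obesogenic library (1.71% and 0.566%), beside 1.47% and 0.638% of all transcripts tested. In the whole table, too, more transcripts were at 1 TPM with the obesogenic diet alone than with the control diet alone.

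On the higher side, Mtx1-211, from the gene of a mitochondrial outer membrane import protein, was listed at 0 in the control libraries and at 10.1, 9.02 and 9.29 TPM in the obesogenic libraries (limma adjusted p = 0.0849 in level and 0.109 for the ratio). The Mtx1 sum overlapped between diets, at 76.4, 96.3 and 66.5 TPM against 118, 87.1 and 87.4 TPM, and the more abundant member Mtx1-217 was at 28.4, 37.2 and 14.8 TPM against 48.4, 32.9 and 22.2 TPM. Srfbp1-205, from the gene of a protein that binds serum response factor, was at 0 against 3.92, 4.11 and 6.31 TPM, while the coding Srfbp1-201 was at 9.68, 11.9 and 10.99 TPM against 11.7, 9.36 and 10.9 TPM. Srfbp1 is fully listed. Amy1-204, from an amylase gene, was at 0 against 4.19, 5.54 and 3.12 TPM.

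Gabra2-202, from the gene of a GABA receptor subunit, was listed at 0 with the control diet and at 9.26, 3.75 and 10.01 TPM with the obesogenic diet. Its coding transcript Gabra2-203 was at 1.32, 2.04 and 0.612 TPM against 8.11, 1.46 and 18.1 TPM. Both were lowest in obesogenic library 2 among the obesogenic libraries, as the neuronal markers were, and their part in this difference was not tested. For the ratio, Cfap36-204 was at 0 against 6.42, 2.78 and 5.27 TPM, Ccar1-208 at 0 against 5.05, 2.64 and 2.29 TPM, and Snrpa-205, from a spliceosome gene, at 0, 1.43 and 0 against 7.56, 5.25 and 13.7 TPM. These 3 genes are fully listed, and the adjusted p of the 3 ratios lay between 0.291 and 0.359 (limma). Another member, Ccar1-212, went the other way, at 3.72, 11.9 and 12.7 TPM against 0, 3.47 and 0 TPM. The members Ccar1-203, Ccar1-206 and Ccar1-210 overlapped between diets.

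On the lower side, Ilk-209, which holds the printed 96-base intron, was at 10.8, 7.17 and 8.01 TPM with the control diet and listed at 0 with the obesogenic diet (limma adjusted p = 0.110 in level and 0.109 for the ratio). Ilk encodes a kinase that links integrins to actin. The coding Ilk-201 was at 177, 168 and 159 TPM against 139, 115 and 138 TPM, and another member, Ilk-208, was at 6.27, 9.78 and 10.99 TPM against 8.39, 12.2 and 13.5 TPM. The member Ilk-211 was at 17.9, 17.6 and 10.99 TPM against 24.8, 15.6 and 6.47 TPM. Ilk-208 and Ilk-211 overlapped between diets, and Ilk-209 did not. Pcca-205, from the gene of a propionyl-CoA carboxylase subunit, was at 38.8, 13.3 and 13.1 TPM against 0 in all obesogenic libraries (limma adjusted p = 0.126). It made up 65.6% to 74.0% of the listed Pcca TPM in control, where Pcca-201 was not analysed.

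Thoc2-214, from a gene of the THO complex that couples transcription to mRNA export, was at 5.59, 5.64 and 4.94 TPM with the control diet and listed at 0 with the obesogenic diet (limma adjusted p = 0.128). Thoc2-211, also labelled as a retained-intron form, was at 1.32, 1.496 and 4.07 TPM with the control diet and 7.56, 7.84 and 4.13 TPM with the obesogenic diet. This was the opposite order, with control library 3 and obesogenic library 3 nearly equal. Rnpepl1-205, from an aminopeptidase-like gene, was at 4.53, 2.45 and 3.07 TPM against 0 (limma adjusted p = 0.177). The member Rnpepl1-204 went the other way, at 0, 1.99 and 0 TPM against 6.06, 3.98 and 3.25 TPM. The other members of Rnpepl1 overlapped between diets. For the ratio, Sh3bp2-206, from an adaptor protein gene, held 100%, 62.1% and 100% of the listed Sh3bp2 TPM in control and 18.2%, 22.6% and 7.95% in obesogenic libraries. Its own level overlapped, at 2.18, 2.07 and 1.33 TPM against 0.693, 3.91 and 0.590 TPM. The sum of the gene was 2.18, 3.33 and 1.33 TPM against 3.80, 17.3 and 7.42 TPM. The share of Sh3bp2-206 was thus lower where the rest of the gene was higher. Most of that rest was the coding Sh3bp2-207, at 3.11, 9.01 and 6.83 TPM in obesogenic libraries. It was listed at 0 in all control libraries, which can be an estimate that failed. Sh3bp2-201, another coding transcript, was not analysed here, so these shares are upper values.

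The class was also set against other kinds of transcript in the same libraries. The log2 ratio of the members' summed TPM to that of 2239 nonsense-mediated decay transcripts was 1.07, 1.06 and 1.12 in control and 1.34, 1.56 and 1.13 in obesogenic libraries. The ratio to 3544 processed transcripts, which have no defined coding sequence, was 0.24, 0.021 and 0.34 against 0.71, 0.95 and 0.41. In both the diets did not overlap, with differences of 0.26 and 0.49 (exact permutation p = 0.1 each, the smallest possible, and 0.15 after adjustment over 3 comparisons). The ratio to 14479 protein-coding transcripts of the parent genes was -2.45, -2.64 and -2.44 against -2.25, -2.11 and -2.47, with overlap and a difference of 0.23 (exact permutation p = 0.3). Some of the 5 most abundant transcripts of the decay and processed classes were lower with the obesogenic diet, but not all. Mobp-204, a decay-labelled transcript of a myelin gene, was at 8541, 6753 and 9828 TPM against 6002, 2998 and 3274 TPM. The decay-labelled 6330403K07Rik-201 was higher, at 49.6, 55.5 and 61.4 TPM against 585, 113 and 1334 TPM. Lars2-209, Prdx6-208 and Ndufa3-204 of that class overlapped between diets. The processed transcript Ptgds-204 was at 15566, 19202 and 15376 TPM against 5643, 4276 and 6044 TPM. Dbi-203 and Cnp-204 of that class were lower too, and Prdx6-204 and Eif1-202 overlapped. Without the 5 most abundant transcripts of each class, the differences were 0.025, 0.10 and 0.12 (exact permutation p = 0.8, 0.6 and 0.2), with overlap in each.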

How the data were processed

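The authors deposited transcript abundances in TPM, 1 column per library. Per the labels' protocols, the kits were NucleoSpin RNA Plus XS for extraction and SMART-Seq mRNA for libraries. Per the submitters' processing notes, DRAGEN, STAR 2.7.9a, Subread and featureCounts 2.0.3 were used, without roles. Which program gave TPM, on which build and annotation, is not given in the sources used here. TPM keeps no depth, which is unknown here, so no counting intervals are given.

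Of 110028 lines, 645 repeats of a transcript were dropped. Gene values are sums over listed transcripts. limma 3.58.1 in R 4.3.3 (lmFit, eBayes with trend) was run on log2(TPM + 1), which understates changes of low values, obesogenic minus control, for all 35408 transcripts and 14364 genes that reached 1 TPM in 3 or more libraries. The ratio of a transcript to the rest of its gene was fitted for 32005 transcripts of genes with at least 2 listed transcripts and at least 1 TPM in every library. P-values are two-sided, adjusted by the Benjamini-Hochberg method over each whole table, with a threshold of 0.05. Library sums were compared by the exact permutation test over 20 splits. The fits were tested on simulated data.

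Introns were read from GENCODE M21 on GRCm38 by transcript ID. Gaps under 30 bases were not taken as introns. Named members are the 10 of highest TPM, the 10 of highest share (gene mean of at least 10 TPM, with a listed coding transcript), per test and direction the 5 of smallest p without overlap, up to 4 per gene list by TPM, and 2 on either side of the limit. Genes named outside this rule were chosen after their values were seen. At gene level the rule takes the 3 of smallest p per list, of which some are given. Members without an established symbol (102) are counted and not named. The members and lists were chosen with earlier results of these data known. Some items that this rule names are not reported here.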

Additional observations from a re-analysis of the deposited data

How the results depend on the processing

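Of the alternatives to the counts of calls, 3 moved a count. Without the trend, 1 member passed in the level test in place of 0. With a pseudocount of 0.1, 4 members passed in the ratio test in place of 0. Without obesogenic replicate 2, 8 listed genes passed in place of 0. Leaving out each library in turn gave 0 member calls in both tests and 0 to 8 gene calls. The difference in the members' part of the listed TPM was between -0.110 and 0.515 percentage points when a library was left out, and -0.0245 with a limit of 5 TPM. The difference of the class medians from protein-coding transcripts was -0.00521, against 0.233 for the sums. The cause was not tested. Rescaling without immunoglobulin genes raised the median of all transcripts from 0.07 to 0.15 and that of the members from 0.11 to 0.18. Libraries of the same sample number in the 2 diets deviated from their diet means with correlations of -0.0016, 0.064 and 0.037. Libraries of different number gave -0.067 to 0.037. These values show no clear pairing, but with 3 libraries per diet they cannot exclude one. With a replicate block, 0 members passed in either test and 0 listed genes. Removal of haemoglobin, the fully listed genes and removal of the 5 most abundant transcripts were alternatives chosen after seeing the data. Depth is unknown and limits low values.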

Other observations

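Some abundant members, chosen after their values were seen, stood out in single libraries. H2-K1-215 and H2-Eb1-202, from antigen presentation genes, were at 878 and 744 TPM in obesogenic library 2, the library with 20.6% immunoglobulin TPM, and at no more than 135 and 104 TPM in the others. Their shares of the gene in that library, 17.0% and 34.5%, lay within the range of the other libraries. H2 genes have close copies, so the split of reads between them is uncertain.

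Uchl1-202, from a deubiquitinase gene that neurons express strongly, was at 89.0, 94.7 and 85.6 TPM with the control diet and 292, 89.4 and 586 TPM with the obesogenic diet. The obesogenic libraries had the order that the neuronal markers have, and the control libraries did not. In obesogenic library 2 the value of Uchl1-202 lay within the control range. The share of Uchl1-202 in the listed Uchl1 TPM was 43.8%, 46.2% and 72.0% against 59.3%, 60.8% and 57.2%. Nearly all of the rest was another member, Uchl1-204, with 55.3%, 50.9% and 27.2% against 38.7%, 37.6% and 41.3%. These shares therefore describe a split between 2 retained-intron entries.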
